A study of Mus musculus with 28 samples.

Results

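The 10 genes described here encode the MHC class I antigen presentation machinery of the mouse: the heavy chains H2-K1 and H2-D1, their light chain B2m, the peptide transporter subunits Tap1 and Tap2, the loading protein Tapbp, the immunoproteasome subunits Psmb8 and Psmb9, the class I transactivator Nlrc5 and the trimming peptidase Erap1. They were chosen by symbol, as the rows of both expression tables whose Ensembl identifier carries 1 of these symbols, and all 10 were found among the 45706 genes of each table. The rule itself uses no expression value. RNA was sequenced from mIMCD-3 cells, an epithelial line that was derived from collecting duct cells of the inner medulla of an SV40-transgenic mouse, in 28 libraries. There were 4 libraries each of the polyclonal wild-type line, of the monoclonal wild-type line WT5, and of subclones 1 to 5, which were grown from single sorted WT5 cells. All cells were wild-type, were grown in the same medium and were harvested 4 days after full confluency, with no interferon or other agent named in the labels.

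Each line other than the polyclonal one goes back to a single cell, so WT5 is 1 clone and not a sample of clones. The polyclonal libraries were read from one end over 50 bp, those of WT5 from both ends over 150 bp and at another time, so the line and the sequencing run cannot be told apart in that comparison. The subclones stand in a second table that was normalized separately, so whatever sets all 5 subclones off from WT5 and whatever sets the tables off from each other cannot be told apart. The study's text calls the 4 libraries of a line biological replicates in one place and technical replicates in another, so p-values measure the spread between these libraries, which may be technical. The libraries had TPM above 0 for 16270 to 19272 genes. Of 13 markers of collecting duct and tubular epithelium, 11 in polyclonal cells and 9 in WT5 had a mean TPM of at least 1, while Aqp2, the water channel of principal cells, was at 0 in all 28 libraries. Of 10 markers of leukocytes and antigen-presenting cells only Csf1r, Cd14 and Cd68 reached a mean TPM of 1 in either line, their list summed to 34.1 to 39.8 TPM in polyclonal libraries and 49.2 to 56.8 TPM in WT5, and Lyz2 and Cd3e were at 0 in all 28 libraries. The summed endothelial and fibroblast markers reached at most 0.29 and 2.12 TPM. The part of these markers in the results was not tested, and in bulk RNA fewer cells with a transcript and less of it per cell cannot be told apart.

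MHC class I molecules show short peptides from inside the cell to cytotoxic T cells, and nearly all nucleated cells carry them. Proteasomes cut the peptides, and Psmb8 and Psmb9 take the place of the constitutive subunits Psmb5 and Psmb6 in the immunoproteasome. Tap1 and Tap2 together carry peptides into the endoplasmic reticulum, Erap1 trims them there, and Tapbp holds empty class I molecules at the transporter. Heavy chains reach the cell surface efficiently only with B2m and a peptide. Interferon gamma raises transcription of most of these genes, in part through Nlrc5, and renal tubular epithelium responds to it in this way.

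Of the 10 genes, 7 lie on chromosome 17 of the mouse, where the major histocompatibility complex is. By the GENCODE M21 annotation of GRCm38, the build used for the deposited tables, Psmb9 (17:34181987-34187764, minus strand), Tap1 (17:34187553-34197225), Psmb8 (17:34197721-34201454) and Tap2 (17:34203527-34216321, all 3 on the plus strand) lie side by side. Tapbp (17:33915899-33929292, plus strand), H2-K1 (17:33996017-34000347, minus strand) and H2-D1 (17:35262730-35267499, plus strand) lie elsewhere in the same region. B2m lies on chromosome 2 (2:122147686-122153083, plus strand), Nlrc5 on chromosome 8 (8:94434356-94527272, plus strand) and Erap1 on chromosome 13 (13:74639568-74693201, plus strand).

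Promoter windows of 300 bases, from 250 bases before to 50 after the start site, are given by RefSeq on GRCm38.p6 for 8 of the 10 genes. Those of the heavy chains, of B2m, of the start shared by Tap1 and Psmb9 and of Psmb8 are shown because the results below turn on these genes. Capitals mark matches on either strand to a palindromic kappaB element (the longest run of capitals in the windows of H2-K1 and H2-D1), GAANNGAAA (an interferon response element), TGACG (found in the X box), CCAAT (the Y box) or TTCNNNGAA (a GAS element), and no match overlapped another.
H2-K1, chr17:34000298-34000597, minus strand: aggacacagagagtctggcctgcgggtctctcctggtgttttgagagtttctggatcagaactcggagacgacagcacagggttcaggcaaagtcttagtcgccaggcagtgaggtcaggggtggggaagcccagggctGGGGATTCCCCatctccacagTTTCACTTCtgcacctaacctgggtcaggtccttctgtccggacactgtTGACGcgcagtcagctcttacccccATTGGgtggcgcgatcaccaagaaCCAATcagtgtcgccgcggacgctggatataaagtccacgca
H2-D1, chr17:35262844-35263143, plus strand: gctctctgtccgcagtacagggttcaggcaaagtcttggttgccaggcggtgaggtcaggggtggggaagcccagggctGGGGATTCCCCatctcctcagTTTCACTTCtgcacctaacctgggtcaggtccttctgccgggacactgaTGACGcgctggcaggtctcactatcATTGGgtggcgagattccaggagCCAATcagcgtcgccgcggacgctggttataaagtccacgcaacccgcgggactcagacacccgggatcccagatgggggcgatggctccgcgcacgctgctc
B2m, chr2:122147437-122147736, plus strand: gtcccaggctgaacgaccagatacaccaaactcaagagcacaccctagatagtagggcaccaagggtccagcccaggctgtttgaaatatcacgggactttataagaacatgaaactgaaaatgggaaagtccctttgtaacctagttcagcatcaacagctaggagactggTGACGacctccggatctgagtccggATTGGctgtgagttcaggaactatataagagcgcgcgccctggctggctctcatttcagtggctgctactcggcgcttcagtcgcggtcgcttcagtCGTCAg
Tap1, chr17:34187306-34187605, plus strand: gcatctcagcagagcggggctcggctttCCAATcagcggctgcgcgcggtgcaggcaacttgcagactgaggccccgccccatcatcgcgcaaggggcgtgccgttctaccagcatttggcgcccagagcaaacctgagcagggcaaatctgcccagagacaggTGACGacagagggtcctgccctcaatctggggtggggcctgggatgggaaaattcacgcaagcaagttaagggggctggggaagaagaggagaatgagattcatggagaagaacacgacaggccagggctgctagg
Psmb8, chr17:34197945-34198244, plus strand: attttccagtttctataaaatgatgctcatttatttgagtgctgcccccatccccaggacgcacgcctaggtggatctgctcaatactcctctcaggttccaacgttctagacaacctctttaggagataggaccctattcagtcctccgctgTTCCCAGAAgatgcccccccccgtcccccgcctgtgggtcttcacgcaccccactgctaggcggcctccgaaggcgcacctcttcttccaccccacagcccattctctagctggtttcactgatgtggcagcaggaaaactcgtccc

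By the RefSeq starts used for these windows, Tap1 and Psmb9 begin 226 bases apart and point away from each other. The Psmb9 window (chr17:34187281-34187580, minus strand) therefore has 275 of its 300 bases in common with the Tap1 window shown. The GENCODE coordinates above place some starts elsewhere. By them Psmb9 (to 34187764) and Tap1 (from 34187553) overlap. The windows of H2-D1, Tapbp, Psmb8, Psmb9 and Erap1 lie wholly inside their genes by these coordinates. H2-K1 and H2-D1 were the only members with the kappaB and the interferon response letters as searched. These letters occurred in 6 and in 2044 of the 27025 promoter windows, or 0.0222% and 7.56%. The interferon response letters were searched at a single spacing of GAA and GAAA. The B2m window holds them at a wider spacing (gaaactgaaa), as does the Erap1 window on the other strand (tttcactttc). The wider spacing was not searched for, so B2m and Erap1 cannot be said to lack such an element. TGACG was found in 5 of the 8 windows (H2-K1, H2-D1, B2m, Tap1 and Psmb9) and in 21% of all windows, and CCAAT in 6 of the 8 (the same genes and Tapbp) and in 37.9% of all. The Psmb8 window held only the GAS letters, found in 8.47% of all windows. The Erap1 window held no match to the letters searched for. These matches are descriptions of the letters, and absence of a match says nothing about a factor.

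All 10 genes had a TPM above 0 in every library, so each was tested in every comparison. TPM corrects for transcript length, so levels can be set against each other. In WT5 the mean level fell from H2-K1 (538 TPM) through B2m (432), H2-D1 (284), Tapbp (166), Psmb8 (129.5), Tap2 (35.4), Psmb9 (20.9), Erap1 (19.5) and Tap1 (16.5) to Nlrc5 (0.247 TPM), with the libraries of Psmb9 and Erap1 overlapping. In polyclonal cells B2m came first at 520.2 ± 17.6 TPM (SD, n = 4), above H2-K1 at 461 ± 34.3 TPM, without overlap of their libraries. Psmb9 stood ninth there, and its 4 libraries (4.58 to 5.49 TPM) lay below every polyclonal library of Tap1 (10.4 to 13.3 TPM). Across the 7 lines the means of Nlrc5 spanned 7.42-fold and those of Psmb9 and Psmb8 4.18-fold and 4.09-fold, and those of Tapbp spanned 1.18-fold.

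**Figure D1:**
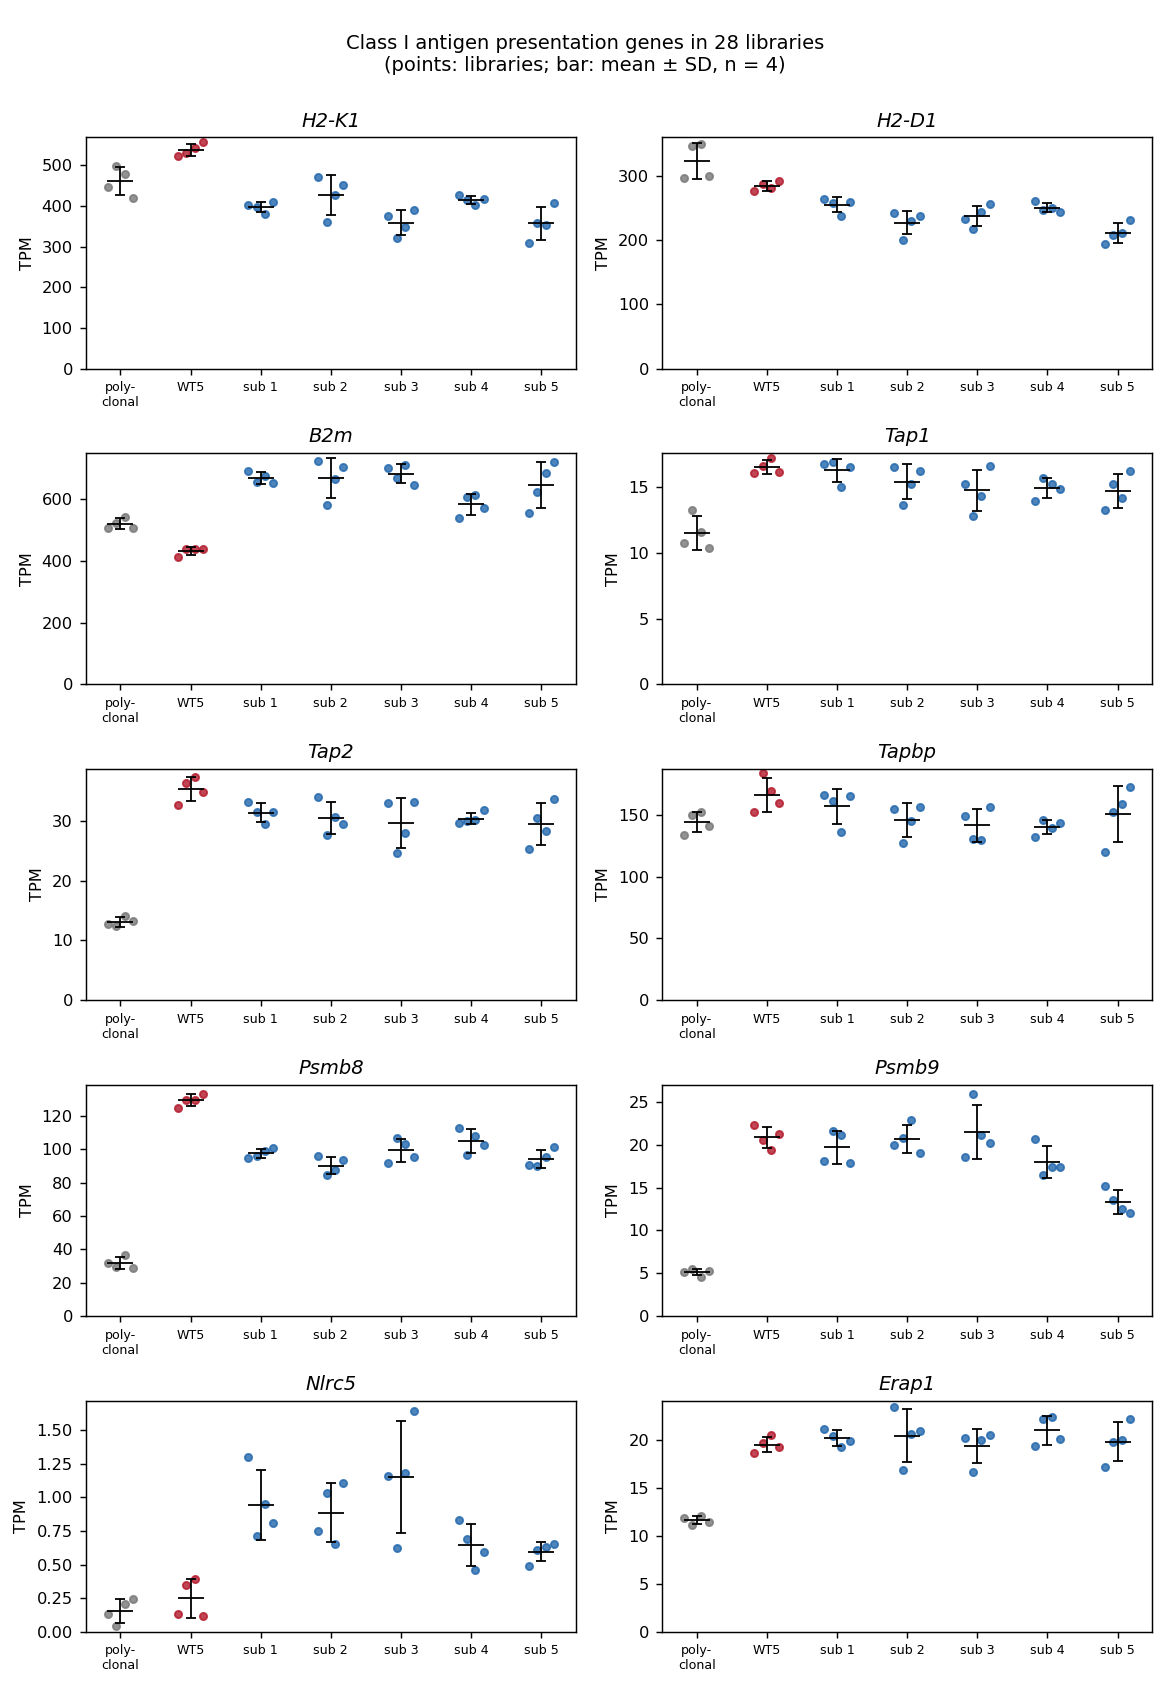
TPM of the 10 genes (vertical axes, linear and starting at 0) in the 28 libraries by line (horizontal axes), with points for libraries and bars for the mean ± SD of 4 libraries. Psmb8, Psmb9, Tap2 and Erap1 are higher in every WT5 and subclone library than in every polyclonal library, and B2m is higher in the subclones than in WT5.

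The first comparison asked how monoclonal WT5 cells differ from the polyclonal line. Psmb8 and Psmb9, the immunoproteasome subunits, were about 4-fold higher in WT5, Tap2 was 2.7-fold higher, and Erap1 and Tap1 were higher by smaller factors, whereas B2m and H2-D1 were lower. Of the 10 genes, 5 rose and 2 fell past an adjusted p of 0.01 (limma on log2(TPM) z-scored within each library, Benjamini-Hochberg over the 13723 genes detected in all 8 libraries). The same test called 65.5% of all genes, 34.5% higher and 30.9% lower, so the members' 70% was close to the share of all genes. The study's methods also require a z-score difference above 1, which corresponds to 8.56-fold, and 5.43% of all genes but none of the 10 met it. Its figure legends instead name a log2 fold change of 1 as the threshold. A log2 difference above 1 together with the adjusted p was met by 25.5% of all genes and by Psmb8, Psmb9 and Tap2. TPM of the median gene was itself 0.24 higher in WT5 on the log2 scale, and log2 differences below are given relative to that gene where so stated.

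Psmb8 stood at 32.0, 29.2, 36.7 and 28.6 TPM in the polyclonal libraries and at 125, 129.7, 129.9 and 133.5 TPM in WT5. The lowest WT5 library was far above the highest polyclonal one, and the means differed 4.09-fold (z-score difference 0.59 ± 0.021 SE, adjusted p = 2.16e-07). Psmb9 stood at 5.15, 5.49, 4.58 and 5.30 TPM in the polyclonal libraries and at 22.3, 20.6, 19.4 and 21.2 TPM in WT5. Its groups did not overlap either, and the means differed 4.07-fold (z-score difference 0.58 ± 0.027 SE, adjusted p = 8.34e-07). Relative to the median gene these 2 differences were 1.80 and 1.78 on the log2 scale.

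Tap2 read 12.7, 12.3, 14.2 and 13.2 TPM in polyclonal cells and 32.7, 36.4, 37.5 and 34.9 TPM in WT5, a 2.7-fold difference without overlap (adjusted p = 3.54e-07). Tap1, its partner in the transporter, read 10.7, 13.3, 11.6 and 10.4 TPM against 16.1, 16.6, 17.2 and 16.1 TPM. Its groups did not overlap, and the means differed 1.44-fold at an adjusted p of 0.0095, close to the threshold of 0.01. When any 1 of the 8 libraries was left out, the call on Tap1 was kept only without polyclonal replicate 2, the library with its highest polyclonal value (adjusted p = 0.00022), and the other 7 settings gave adjusted p up to 0.0293. It was also lost with values centred on the median gene (adjusted p = 0.0288) and with predicted genes left out (0.127). The unequal-variance test, which the study used, a mean TPM of at least 1 and the replicate block lost it as well. In all, 12 of 18 alternative settings did not keep the call on Tap1. The ratio of Tap2 to Tap1 within a library was 1.15 ± 0.153 in polyclonal cells and 2.14 ± 0.0728 in WT5 (SD, n = 4 each).

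Erap1 read 11.9, 11.1, 12.1 and 11.5 TPM in polyclonal cells and 18.7, 19.6, 20.5 and 19.2 TPM in WT5, 1.68-fold higher (adjusted p = 5.68e-06). Tapbp overlapped between the lines, at 134 to 152.6 TPM and 152.2 to 184 TPM, with a z-score difference of 0.004 ± 0.021 SE (adjusted p = 0.867). On the reference transcripts, 14% of 50-base stretches of Erap1 also occur in the overlapping gene Cast and 21% of those of Tapbp occur in other genes, and 12.5% and 8.73% of their 150-base stretches do.

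B2m read 507, 523, 544 and 507 TPM in polyclonal cells and 412, 437, 439 and 439 TPM in WT5. All 4 WT5 libraries were lower, to 0.83 of the polyclonal mean (z-score difference -0.14 ± 0.011 SE, adjusted p = 9.97e-06). H2-D1 read 297, 347.6, 349.6 and 301 TPM against 276, 288, 281 and 293 TPM, again lower in every WT5 library and at 0.879 of the polyclonal mean (adjusted p = 0.0003). Without z-scores the call on H2-D1 was lost. H2-K1 went from 446, 498, 478 and 421 TPM to 523, 529.6, 543 and 556 TPM without overlap, but the rise of 0.23 on the log2 scale was close to the 0.24 of the median gene and did not pass (adjusted p = 0.307).

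The summed heavy chains H2-K1 and H2-D1 stood to B2m as 1.51 ± 0.0841 in polyclonal cells and 1.91 ± 0.0374 in WT5. Of the 50-base stretches in H2-K1 8.11% and in H2-D1 14.3% occur in other genes as well, further class I heavy chains among them, against 0% and 1.79% of 150-base stretches. The levels of both heavy chains in the 50 bp libraries are therefore less certain, by an amount that these shares do not give. For Tap2 the shares were 12.6% and 0.668%, with the overlapping Gm15821 and other genes. For Psmb8 they were 4.95% and 0%, with the antisense Gm20496, and for Tap1 0.647% and 0%. The polyclonal levels of these genes are less certain too, and the effect on them was not tested. B2m, Psmb9 and Nlrc5 shared no stretch of 50 bases with another gene.

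Nlrc5 was near the limit of detection in both lines, at 0.13, 0.04, 0.21 and 0.24 TPM in polyclonal cells and 0.13, 0.35, 0.39 and 0.12 TPM in WT5. The libraries overlapped and the difference did not pass (adjusted p = 0.520). Over the 10 genes the median z-score difference was 0.13, against 0.01 over all genes tested. In all, the libraries of 6 genes were higher in WT5 without overlap, those of 2 were lower and those of 2 overlapped, and 48.5% of all genes were higher and 23.8% lower in this way.

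**Figure D2:**
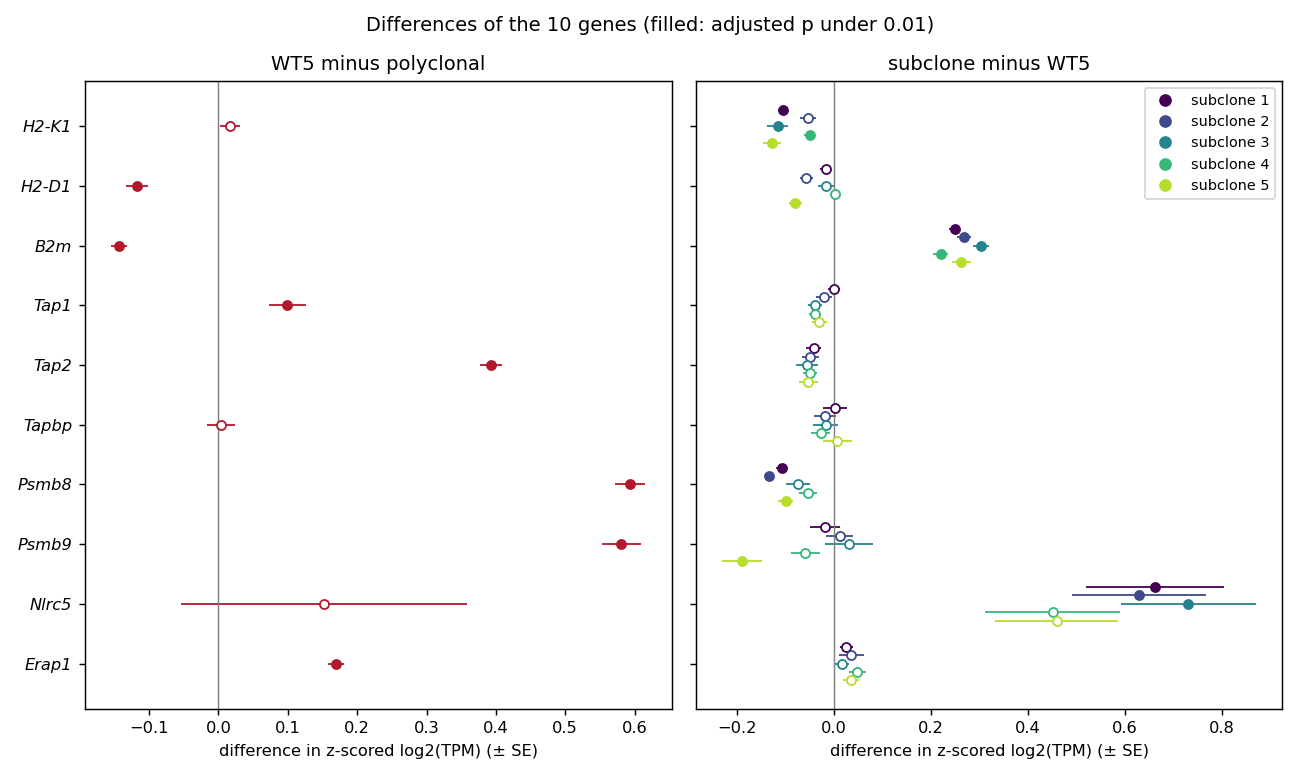
Difference in z-scored log2(TPM) with its SE (horizontal axes) for each of the 10 genes (vertical axis), WT5 minus polyclonal on the left and each subclone minus WT5 on the right. Filled points passed an adjusted p of 0.01. On the left Psmb8 and Psmb9 are farthest to the right at 0.59 and 0.58. On the right B2m, Nlrc5 and Erap1 lie above 0 in all 5 subclones, Erap1 without passing in any.

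Immunoproteasome subunits were next set against the constitutive subunits they replace, as ratios of TPM within a library and without a test. Psmb8 was 15.8% ± 1.20 of Psmb5 in polyclonal cells, 44.8% ± 2.84 in WT5 (SD, n = 4 each) and 37.9% to 51.6% in the 20 subclone libraries. Psmb9 was 1.26% ± 0.139 of Psmb6 in polyclonal cells, 4.15% ± 0.182 in WT5 and 2.59% to 5.12% in the subclone libraries. Psmb10, the remaining catalytic immunosubunit, behaved otherwise: it was 7.23% ± 0.478 of Psmb7 in polyclonal cells, 3.34% ± 0.283 in WT5 and 4.13% to 6.08% in the subclone libraries. Psmb10 itself fell past the test in WT5, from 26.2 ± 2.12 to 20.9 ± 1.49 TPM (adjusted p = 0.000311), while Psmb7 rose from 363 ± 21.8 to 626 ± 14.6 TPM (adjusted p = 2.43e-06).

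**Figure D3:**
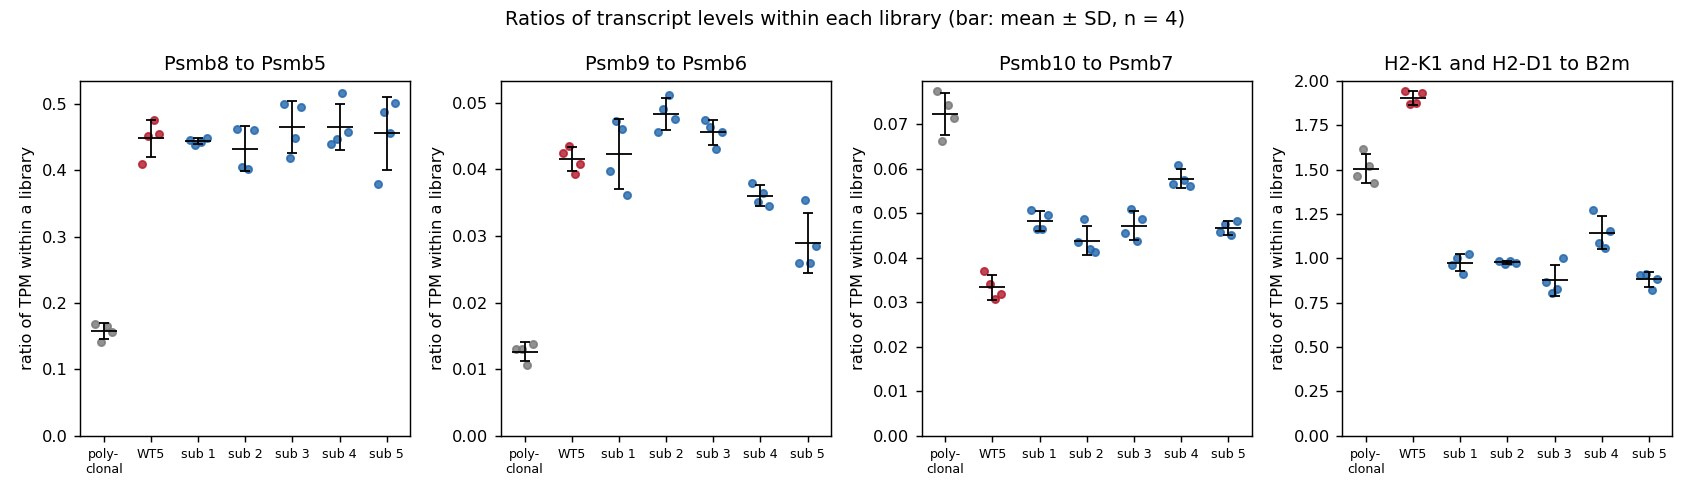
Ratios of TPM within a library (vertical axes, from 0) by line (horizontal axes), with points for libraries and bars for the mean ± SD of 4 libraries. Psmb8 to Psmb5 and Psmb9 to Psmb6 are lowest in the polyclonal line, Psmb10 to Psmb7 is highest there, and the heavy chains to B2m ratio is lowest in the subclones.

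Genes around the Psmb9, Tap1, Psmb8 and Tap2 cluster were looked at after the values of the cluster had been seen. Within 100 kb of its ends, 18 genes were in the tables and 9 were tested, the 4 members and 5 others. Low levels were seen for H2-DMb2, with means of 0.66 TPM in WT5 and 0.455 TPM in polyclonal cells. Gm15821, which lies within Tap2, had means of 0.18 and 0.115 TPM. Of the 5 others, Brd2, a chromatin reader outside antigen presentation, rose past the test (z-score difference 0.19, adjusted p = 4.63e-06), and H2-DMb1, a class II loading chaperone, fell (z-score difference -0.089, adjusted p = 0.0012). Relative to the median gene, the members' log2 differences were 1.78 for Psmb9, 0.29 for Tap1, 1.80 for Psmb8 and 1.19 for Tap2, while those of the 5 others ran from -0.31 for H2-DMb1 to 0.53 for H2-DMa, which did not pass (adjusted p = 0.0148). Psmb9 and Tap1 start from the same stretch of DNA, yet the ratio of Psmb9 to Tap1 within a library was 0.450 ± 0.055 in polyclonal cells and 1.27 ± 0.113 in WT5 (SD, n = 4 each).

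**Figure D4:**
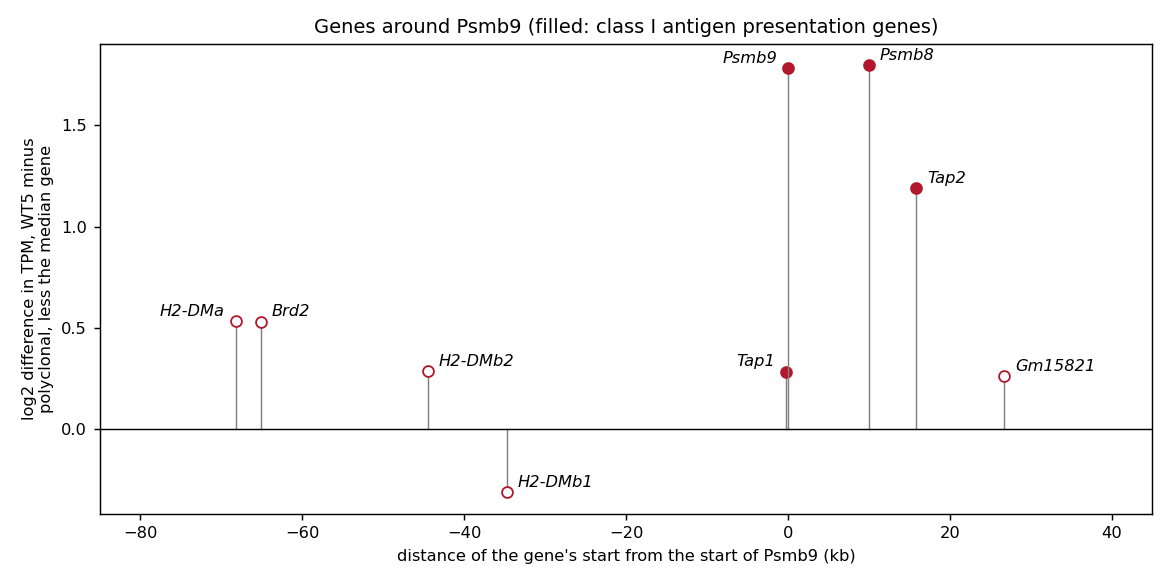
Log2 difference in TPM, WT5 minus polyclonal and less that of the median gene (vertical axis), against the distance of each gene's start from the start of Psmb9 in kb (horizontal axis), for the 9 tested genes. Starts are those of the GENCODE annotation. Filled points are the members. Psmb9, Psmb8, Tap2 and Tap1 lie at 1.78, 1.80, 1.19 and 0.29, and the 5 other genes lie between -0.31 and 0.53.

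Further genes of the pathway are given by their counts, to be read beside the 65.5% of all genes that passed in this comparison, 34.5% higher and 30.9% lower. Between 71.4% and 87.5% of the tested genes of the next 5 lists passed, and no difference from all genes was tested. Of 17 further class I heavy chains, 12 were tested, 5 rose and 4 fell. H2-M3, which presents formylated peptides, had the largest rise, from 0.90 ± 0.182 to 21.3 ± 1.78 TPM (z-score difference 1.41, adjusted p = 3.12e-07), and Mr1, which presents vitamin metabolites, the largest fall, from 6.80 ± 1.20 to 0.503 ± 0.138 TPM (adjusted p = 3.25e-06). H2-M3 shared 0.576% of its 50-base stretches with another gene and Mr1 none. Of 8 genes of peptide loading and folding in the endoplasmic reticulum, 2 rose and 5 fell: Tapbpl, a peptide editor related to Tapbp, went from 12.3 ± 0.886 to 24.8 ± 1.09 TPM, and the chaperone Canx from 526 ± 55.2 to 264 ± 4.87 TPM.

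Of 20 proteasome subunits and activators other than the members, 6 rose and 10 fell, the core subunit Psma3 most upward (127 ± 9.26 to 309.9 ± 9.36 TPM) and the activator subunit Psme1 most downward (327 ± 24.8 to 194 ± 3.67 TPM). Among 7 cytosolic and other peptidases 1 rose, Lnpep (2.67 ± 0.503 to 11.9 ± 1.24 TPM), and 4 fell, Blmh the most (109.96 ± 4.86 to 80.4 ± 3.98 TPM). Of 22 tested transcriptional regulators 9 rose and 9 fell. Irf8, an interferon regulatory factor best known from myeloid cells, went from 0.497 ± 0.218 to 16.7 ± 0.847 TPM (z-score difference 1.59, adjusted p = 1.58e-06) and Rfxap, a subunit of the X box complex, from 62.9 ± 7.06 to 45.9 ± 3.40 TPM. Median z-score differences of these lists, from -0.10 for the loading genes to 0.07 for the heavy chains, stood beside 0.01 for all genes.

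Of 9 interferon receptors, kinases and related genes 4 rose and 2 fell, with Socs3, a feedback inhibitor of cytokine signalling, up from 6.80 ± 0.566 to 29.2 ± 1.24 TPM and the receptor chain Ifngr2 down from 86 ± 6.38 to 55.5 ± 1.71 TPM. Of 22 tested interferon-induced genes outside antigen presentation, 2 rose and 14 fell, beside 34.5% and 30.9% of all genes, with a median z-score difference of -0.27 against 0.01 for all genes. The list itself was not tested. Rsad2, an antiviral enzyme, fell from 2.80 ± 0.807 to 0.25 ± 0.0735 TPM, and Gbp7, a guanylate-binding protein, rose from 1.45 ± 0.35 to 3.82 ± 0.353 TPM. Of 8 class II genes 3 were tested, and 2 of them fell. Cd74, the class II invariant chain, went from 5.51 ± 0.11 to 0.608 ± 0.222 TPM, and the class II transactivator Ciita was at 0 in all polyclonal and WT5 libraries.

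The second comparison asked how far the subclones differ from their parental line WT5. Past the test, B2m was higher in all 5 subclones, H2-K1 lower in 4, Psmb8 lower in 3 and Nlrc5 higher in 3. In every one of the 20 subclone libraries B2m and Nlrc5 were above, and H2-K1, H2-D1 and Psmb8 below, all 4 WT5 libraries. These comparisons share the 4 WT5 libraries, and fold changes of the 5 are therefore given side by side only. In subclones 1 to 5, 4, 3, 3, 2 and 5 members passed the adjusted p, while the test called 26.3%, 26.0%, 19.5%, 37.3% and 21.9% of the 13860 genes detected in all 24 libraries. Higher calls made up 12.7%, 13.4%, 8.65%, 18.2% and 10.2% of all genes and lower calls 13.6%, 12.6%, 10.9%, 19.2% and 11.7%. None met the criterion with a z-score difference above 1, here 7.94-fold, which 0.152%, 0.144%, 0.173%, 0.202% and 0.173% of genes met. A log2 difference above 1 together with the adjusted p was met by Nlrc5 alone, in subclones 1 to 3, and by 3.17%, 2.69% and 3.61% of genes there. In subclones 4 and 5 the log2 difference of Nlrc5 was 1.55 and 1.46 without passing the adjusted p.

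B2m ranged from 541 to 725 TPM over the 20 subclone libraries and from 412 to 439 TPM in WT5, without overlap. The subclone means were 1.55-fold, 1.55-fold, 1.58-fold, 1.35-fold and 1.5-fold that of WT5 in subclones 1 to 5, with adjusted p between 1.8e-05 and 0.000133. The polyclonal libraries, at 507 to 544 TPM, lay above every WT5 library and below all but 1 subclone library.

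H2-K1 was between 310 and 472 TPM in the subclone libraries and at or above 523 TPM in WT5. The means were 0.738, 0.794, 0.666, 0.772 and 0.664 of WT5, and all but that of subclone 2 passed (adjusted p = 0.0414 there, 0.00028 to 0.00744 in the others). With single libraries left out, the call was kept in all 8 settings for subclones 1 and 5. It was kept in 3 for subclone 3 (without its replicate 1, 2 or 4, adjusted p up to 0.0219) and in 1 for subclone 4 (without its replicate 1, up to 0.0271). The unequal-variance test lost it in subclones 3 and 5, and the replicate block in subclones 3, 4 and 5. A fit of all 24 libraries lost it in subclone 4. H2-D1 lay between 194 and 265 TPM, below every WT5 library in all 20, and passed only in subclone 5, at 0.743 of WT5 (adjusted p = 0.00354). That call was kept in 3 of 8 settings with 1 library left out (replicates 1, 2 or 4 of subclone 5), with adjusted p up to 0.0152, and was lost with the replicate block. Its z-score difference in subclone 4 was 0.004 and its log2 difference there was -0.18, of opposite signs. The heavy chains stood to B2m as 0.804 to 1.27 in the subclone libraries, all below the WT5 libraries (1.87 to 1.94) and the polyclonal ones (1.42 to 1.62).

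Psmb8 was between 84.4 and 113 TPM in the subclone libraries, below all WT5 libraries and above all polyclonal ones. It passed in subclones 1, 2 and 5, at 0.755, 0.698 and 0.729 of WT5 (adjusted p = 0.000582, 0.000145 and 0.0028), and did not in subclones 3 and 4, at 0.768 and 0.811 (adjusted p = 0.0545 and 0.0493). The call in subclone 5 was lost without its replicate 3 or without WT5 replicate 2, 3 or 4 (adjusted p up to 0.0119), with the unequal-variance test and with the replicate block, and the call in subclone 1 with the block alone. Psmb9 passed in subclone 5 alone, at 0.637 of WT5 (adjusted p = 0.00911). Leaving out any 1 of 7 of the 8 libraries ended that call, with adjusted p up to 0.0283, and only leaving out subclone 5 replicate 1 kept it (adjusted p = 0.000951). The call also ended with the unequal-variance test, with values centred on the median gene, without a filter on low values and with the replicate block.

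Nlrc5 read 0.46 to 1.64 TPM in the 20 subclone libraries, above all 4 WT5 libraries. It passed in subclones 1, 2 and 3, at 3.81-fold, 3.58-fold and 4.65-fold of WT5 (adjusted p = 0.00812, 0.00888 and 0.00586), and not in subclones 4 and 5, at 2.60-fold and 2.40-fold (adjusted p = 0.0275 and 0.0241). With single libraries left out its adjusted p ranged from 0.00759 to 0.0225, from 0.00734 to 0.026 and from 0.00633 to 0.0189 in subclones 1, 2 and 3. The calls were kept in 1, 1 and 3 of 8 such settings and were lost with the unequal-variance test and with the replicate block.

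Tap1, Tap2, Tapbp and Erap1 did not pass in any subclone. Tap1 ranged from 12.8 to 16.9 TPM, Tap2 from 24.6 to 34 TPM, Tapbp from 120 to 172.6 TPM and Erap1 from 16.7 to 23.5 TPM over the 20 libraries. Between the subclones and WT5, 2 members (B2m and Nlrc5) were higher and 3 (H2-K1, H2-D1 and Psmb8) lower without any overlap of libraries, as were 3.38% and 12.3% of all genes. Between the 24 WT5 and subclone libraries and the 4 polyclonal ones, Tap2, Psmb8, Psmb9 and Erap1 were higher and H2-D1 lower without overlap, as were 29.1% and 16.0% of all genes.

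Of 22 interferon-induced genes outside antigen presentation, 9, 8, 6, 10 and 11 rose and 2, 2, 1, 1 and 0 fell in subclones 1 to 5. Of all genes, 12.7%, 13.4%, 8.65%, 18.2% and 10.2% rose and 13.6%, 12.6%, 10.9%, 19.2% and 11.7% fell. Their median z-score difference was 0.065, 0.088, 0.098, 0.092 and 0.15 in turn, beside medians between -0.0031 and 0.0025 over all genes. The 5 comparisons share the 4 WT5 libraries with one another and, with the opposite sign, with the comparison of WT5 and polyclonal cells. No test of the list was made.

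The last comparison was made among the 5 subclones, which stand in 1 table. Of the 10 genes, 2 differed past the adjusted p (moderated F test of limma), H2-D1 (adjusted p = 0.00114) and Psmb9 (adjusted p = 0.00927), where 25.0% of all genes did. None had a range of subclone means above a z-score of 1, as 0.635% of genes did. The median range over the 10 genes was 0.078, and over all genes 0.096.

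Psmb9 was lowest in subclone 5, at 15.1, 13.5, 12.5 and 12.0 TPM, below all 16 libraries of the other subclones. Subclone 1 read 18.1, 21.6, 21.2 and 17.9 TPM, subclone 2 read 19.9, 20.8, 22.9 and 19.0 TPM, subclone 3 read 18.6, 25.9, 21.1 and 20.2 TPM and subclone 4 read 20.6, 16.5, 17.4 and 17.5 TPM. These 4 subclones overlapped one another. Subclone 5 differed from subclones 2 and 3 past the adjusted p (0.00804 and 0.0044), and no other pair of subclones did for Psmb9. The adjusted p of the F test ran from 0.00272 to 0.041 when single libraries were left out and stayed past the threshold in 6 of 20 such settings. The unequal-variance test, values centred on the median gene, no filter on low values and the replicate block each lost this call too.

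H2-D1 was also lowest in subclone 5, at 194, 209, 212 and 231 TPM, and highest in subclone 1, at 265, 259, 238 and 260 TPM. Subclone 2 read 242, 201, 229.7 and 238 TPM, subclone 3 read 233, 218, 244 and 257 TPM and subclone 4 read 261, 248, 250.2 and 245 TPM. Libraries of subclone 5 overlapped those of subclones 2 and 3 but not those of subclones 1 and 4. Of its 10 pairs 4 passed, subclone 5 against 1, 3 and 4 and subclone 2 against 4, and the F test kept its call in all 20 settings without 1 library.

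Among the other members, H2-K1 differed only between subclones 4 and 5 (adjusted p = 0.00937) and B2m only between subclones 3 and 4 (adjusted p = 0.00379). Nlrc5, with the widest range of z-scores among the members at 0.28, did not pass (adjusted p = 0.0237), nor did Psmb8 (0.0627), Tap1 (0.228), Tapbp (0.681), Erap1 (0.756) or Tap2 (0.974). In all 8 of 100 tests of a member in a pair of subclones passed, and the share of all genes called was 3.77%, 3.51%, 12.7% and 9.21% for subclone 1 against 2, 3, 4 and 5, 3.87%, 14.7% and 9.05% for subclone 2 against 3, 4 and 5, 12.4% and 8.8% for subclone 3 against 4 and 5, and 20.5% for subclone 4 against 5.

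The 3 genes most like Psmb9 across the 20 subclone libraries, by Pearson's r of log2(TPM) among the 11969 genes that averaged 1 TPM or more, were Dnph1, a nucleotide hydrolase also on chromosome 17 (r = 0.897), the non-coding RNA Lhx1os (r = 0.896) and 1700056E22Rik (r = 0.881). These are descriptions, since the 20 points share lines and a table. Dnph1 had 38.9 ± 3.94 TPM in subclone 5 and 50 to 57.5 TPM as means of the other 4. The same measure was 0.866 between Tap1 and Tap2, but also 0.836 between Tap1 and Tapbp and 0.783 between Tap1 and Erap1. A high r was thus not particular to the transporter pair. None of these genes passed the F test among the subclones, and the measure takes in the spread between libraries of a line. Between Psmb8 and Psmb9 it was 0.118, although this pair stood about equally far above the polyclonal line in WT5.

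The other lists are given as counts past the F test, which called 25.0% of all genes, and differences between lists were not tested. The counts were 0 of 20 further proteasome genes, 4 of 11 heavy chains (Mr1 with the widest range of z-scores, 1.44), 4 of 8 loading genes (Tapbpl, 0.21), 1 of 7 peptidases (Lap3), 2 of 22 regulators (Irf1, 0.15), 3 of 9 interferon receptors and kinases (Ifngr1, 0.16), 8 of 22 interferon-induced genes (Oas1a, 0.51) and 2 of 3 class II genes (H2-DMb1, 0.38). Irf1, an activator of class I and immunoproteasome genes, was highest in subclone 4 at 47.6 ± 1.48 TPM and 35.5 to 38.8 TPM as means of the other 4. Mr1 was highest in subclone 5, at 1.90 ± 0.172 TPM, where Psmb9 and H2-D1 were lowest.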

How the data were processed

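The deposited values are TPM per gene, computed by the authors with RSEM 1.3.1 from STAR 2.7.3a alignments to GRCm38, per the submitters' processing notes. TPM holds no read depth, so depth and counting error are unknown here. No column of the 2 tables was left unmapped, and no pair of the 28 libraries was identical. Values were log2 transformed without a pseudocount over genes with TPM above 0 in all libraries compared, z-scored within each library, and tested with limma 3.58.1 in R 4.3.3 (two-sided, Benjamini-Hochberg, adjusted p under 0.01). The study's unequal-variance test was run as an alternative. The fits were tested on simulated data. Gene symbols came from GENCODE M21 and RefSeq. Members and lists were chosen with earlier results of these data known, and no list is independent evidence. The window around Psmb9 and Tap2 was chosen after seeing the data. All 10 members were named, and of each list its counts, the largest rise and fall in WT5, and the widest range among subclones past the test.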

Additional observations from a re-analysis of the deposited data

Results flagged for a closer look

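H2-D1 and Psmb9 differed among the 5 subclones by the F test (adjusted p = 0.00114 and 0.00927, limma), with the lowest means of both in subclone 5. The call on H2-D1 was lost in 1 of 30 alternative settings and that on Psmb9 in 18 of 30. Of 70 groups of 4 libraries, 3 held a library far from its neighbours by Dixon's criterion at the 95% level, and chance alone gives about 1 in 20. B2m was at 411.69 TPM in WT5 replicate 1, with the other 3 libraries at 437 to 439 TPM. Tapbp was at 135.95 TPM in subclone 1 replicate 3, with the other 3 at 161 to 166 TPM. Erap1 was at 16.67 TPM in subclone 3 replicate 2, with the other 3 at 20 to 20.5 TPM. Leaving out WT5 replicate 1 kept B2m past the test in every comparison of WT5, with a z-score difference of -0.145 against polyclonal cells.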

How the results depend on the processing

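Of 26 calls on a member past the adjusted p, 12 were kept under every alternative run and 0 reversed, and where a call was lost the cause was not tested. TPM gives no depth, so low values such as those of Nlrc5 cannot be weighed by their reads. Besides the main z-scored fit, pseudocounts, filters, scalings, an unequal-variance test, another threshold and libraries left out were tried.

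The count of members past the test moved by over 1.5 times in these settings. With values centred on the median gene 5 passed in subclone 2. At an adjusted p under 0.05, 5 passed in subclone 2, 7 in subclone 4 and 5 among the subclones. With the unequal-variance test 1 passed in subclone 3, 2 in subclone 5 and 1 among the subclones. Without z-scores 5 passed in subclone 4 and 1 among the subclones. With a log2 difference above 1 in place of a z-score difference above 1, 3 members were differentially expressed between WT5 and polyclonal cells and 1 each in subclones 1, 2 and 3, where none were before.

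With single libraries left out, members past the test numbered 6 to 7 between WT5 and polyclonal cells, 3 to 4, 2 to 3, 1 to 4, 1 to 2 and 2 to 5 in subclones 1 to 5, and 1 to 3 among the subclones. The count in subclone 3 was 1 without its replicate 3 or without WT5 replicate 1 or 4. In subclone 4 it was 1 without any single library but its replicate 1. In subclone 5 it was 2 without its replicate 3 or WT5 replicate 2, 3 or 4, and 3 without WT5 replicate 1. Among the subclones it was 1 without replicates 1, 2 or 3 of subclone 1, 1, 3 or 4 of subclone 2, 3 of subclone 3, 2, 3 or 4 of subclone 4, or 2 or 3 of subclone 5.

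Same-numbered libraries deviated together with correlations from -0.0457 to 0.0637, so the numbers were not taken as pairs. With the replicate block 6 members passed between WT5 and polyclonal cells, 2, 2, 1, 1 and 1 in subclones 1 to 5, and 2 among the subclones.

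Signs that turned all belong to differences that did not pass in the main fit. Values given as centred or without z-scores are log2 differences, and the others are z-score differences. Between WT5 and polyclonal cells, the difference was -0.0369 for Nlrc5 with log2(TPM + 1), -0.0158 for H2-K1 without a filter on low values and -0.0634 when centred on the median gene, and -0.0885 and -0.0143 for Tapbp when centred and with predicted genes left out. For subclone 1 Tapbp gave -0.00133 with log2(TPM + 1), -0.00606 without the filter, -0.0833 without z-scores, -0.046 centred and -0.00771 with predicted genes left out, and Tap1 gave -0.0218 without z-scores. Without z-scores Psmb9 gave -0.0167 in subclone 2 and Erap1 -0.016 in subclone 3. H2-D1 in subclone 4 gave -0.0045 with log2(TPM + 0.1), -0.0169 with log2(TPM + 1), -0.0171 at a mean TPM of at least 1, -0.0157 without the filter, -0.181 without z-scores (adjusted p = 0.00463, limma), -0.0887 centred and -0.012 with predicted genes left out. Tapbp in subclone 5 gave -0.00135 without the filter, -0.149 without z-scores, -0.0448 centred and -0.000915 with predicted genes left out.

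With single libraries left out the sign also turned for Tapbp (-0.0169 to 0.0127) and Nlrc5 (-0.0287 to 0.261) between WT5 and polyclonal cells, for Tap1 (-0.00434 to 0.00916), Tapbp (-0.00791 to 0.0194) and Psmb9 (-0.0354 to 0.00163) in subclone 1, for Psmb9 in subclones 2 (-0.00631 to 0.0279) and 3 (-0.0152 to 0.0614), for Tapbp in subclones 3 (-0.0292 to 0.000367) and 5 (-0.00828 to 0.0299), and for H2-D1 in subclone 4 (-0.00388 to 0.00738).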
